A study of Homo sapiens with 8 samples.

Results

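Goblet cells coat the gut surface with mucus, and 10 of their genes were followed here in a colorectal cancer line: the mucins MUC2, MUC5AC, MUC5B and MUC13, the trefoil factors TFF1 and TFF3, the transcription factors ATOH1 and SPDEF, the disulfide isomerase AGR2 and the mucus protein FCGBP. They were chosen by gene symbol, and each had 1 row among the 38148 genes of the table. 9 of the 10 passed the filter on low values, which kept 14219 genes averaging 1 RPM or more (RPM, the reads of a gene per 1000000 reads on genes), and MUC5B did not. HT29 is a human colorectal cancer line with an activating BRAF mutation. Selumetinib blocks MEK and thereby the activation of ERK. Glyoxal-fixed cells were sorted on their stain for cyclin B1 (CCNB1), which accumulates in G2, and poly(A) RNA was sequenced. The 4 groups of 2 libraries were untreated CCNB1-negative, untreated CCNB1-positive, and the same fractions after 24 h in 1 μM selumetinib. No vehicle is named in the labels for the untreated cells, RPMI-1640 is named as the medium where the methods name McCoy's 5A for this line, and the labels do not say whether the 2 libraries of a group came from separate cultures (the methods speak of biological replicates for the matching experiment in COLO205, another line), so that p-values measure the spread between these libraries, which may be technical.

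The labels of these libraries contradict each other. Each title gives the reverse of its description for both the drug and the fraction. Groups here follow the descriptions, which are also the column names. If the titles were right, each response to selumetinib below would belong to the other fraction and carry the opposite sign, each fraction difference would belong to the other treatment with the opposite sign, and the difference between the responses of the fractions would not move. CCNB1 mRNA had mean log2 values of 11.83 and 13.92 in the libraries described as untreated CCNB1-negative and CCNB1-positive, and of 7.57 and 12.65 in those described as selumetinib-treated CCNB1-negative and CCNB1-positive. DUSP6, a phosphatase gene switched on by ERK, averaged 11.35 and 10.61 in the untreated fractions and 9.60 and 9.55 in the treated ones. Under the titles, CCNB1-positive cells would hold less CCNB1 mRNA than CCNB1-negative cells in both treatments, and DUSP6 would be higher with the drug. Reads on genes ranged from 19114877 to 23916160 in the untreated libraries and from 12696860 to 19976635 in the treated ones. All 9 markers of colorectal epithelium fixed for the check, such as EPCAM and KRT20, passed the filter.

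In the healthy colon a stem cell daughter that turns on ATOH1 enters the secretory lineage, and SPDEF acts further along to mature goblet cells. Mature goblet cells pack MUC2, the gel-forming mucin of the colon, into granules after its long peptide has been folded and disulfide-linked in the endoplasmic reticulum (ER), where AGR2 works, and then decorated with O-linked sugars in the Golgi. TFF3 and FCGBP leave the cell with the mucus. MUC5AC and TFF1 belong to the surface mucus of the stomach, and MUC5B to that of the airways and salivary glands, while MUC13 stays in the membrane of the epithelial cell. ERK signalling is tied to the balance between dividing and differentiated cells of this epithelium.

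The 10 genes lie on 7 chromosomes of GRCh38. MUC2 (ENSG00000198788, 1074875 to 1110511, plus strand), MUC5AC (ENSG00000215182, 1157953 to 1201138, plus strand) and MUC5B (ENSG00000117983, 1223066 to 1262172, plus strand) neighbour each other on chromosome 11. TFF1 (ENSG00000160182, 42362282 to 42366535, minus strand) and TFF3 (ENSG00000160180, 42311667 to 42315651, minus strand) lie near each other, though not adjacent, on chromosome 21. The others are MUC13 on chromosome 3 (ENSG00000173702, 124905442 to 124953819, minus strand), ATOH1 on chromosome 4 (ENSG00000172238, 93828753 to 93830964, plus strand), SPDEF on chromosome 6 (ENSG00000124664, 34537802 to 34556333, minus strand), AGR2 on chromosome 7 (ENSG00000106541, 16791811 to 16833433, minus strand) and FCGBP on chromosome 19 (ENSG00000275395, 39863323 to 39934626, minus strand). Exons of MUC5B overlap those of its antisense gene MUC5B-AS1. Whether the counting used strand is not given in the sources used here, so reads of that pair cannot be told apart. No gene on the opposite strand overlapped the other 9.

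RefSeq promoters (GRCh38.p14) were found for 6 of the 10 genes, namely MUC2, MUC13, SPDEF, ATOH1, AGR2 and FCGBP. The 250 bases before the RefSeq start are printed for MUC2 and AGR2, which fell under selumetinib, and for MUC13 and FCGBP, which rose (MUC13 by the test in CCNB1-positive cells), 5′ to 3′ on the strand of the gene, with motif matches in capitals. MUC2 covers chr11:1074624-1074873 (plus strand), AGR2 chr7:16805000-16805249 (minus strand), MUC13 chr3:124934752-124935001 (minus strand) and FCGBP chr19:39934635-39934884 (minus strand). The windows of MUC13 and AGR2 lie inside the spans that the table gives these genes.
MUC2: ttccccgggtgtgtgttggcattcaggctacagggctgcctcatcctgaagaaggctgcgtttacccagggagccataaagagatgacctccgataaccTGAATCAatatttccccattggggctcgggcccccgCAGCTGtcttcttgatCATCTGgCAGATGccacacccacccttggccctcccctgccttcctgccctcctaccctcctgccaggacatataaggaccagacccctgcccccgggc
AGR2: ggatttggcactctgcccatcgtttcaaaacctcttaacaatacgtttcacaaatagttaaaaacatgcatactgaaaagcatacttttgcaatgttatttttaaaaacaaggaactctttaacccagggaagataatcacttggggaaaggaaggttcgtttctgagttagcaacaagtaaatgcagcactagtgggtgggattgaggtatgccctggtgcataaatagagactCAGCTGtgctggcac
MUC13: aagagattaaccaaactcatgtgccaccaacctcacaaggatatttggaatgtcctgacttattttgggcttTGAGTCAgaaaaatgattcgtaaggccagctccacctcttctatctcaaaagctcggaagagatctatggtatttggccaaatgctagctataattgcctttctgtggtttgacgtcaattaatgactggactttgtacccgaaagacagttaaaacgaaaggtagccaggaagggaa
FCGBP: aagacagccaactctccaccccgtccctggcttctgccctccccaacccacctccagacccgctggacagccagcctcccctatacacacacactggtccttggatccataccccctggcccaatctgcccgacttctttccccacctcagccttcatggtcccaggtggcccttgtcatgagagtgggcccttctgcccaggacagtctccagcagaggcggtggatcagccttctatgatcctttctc

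The motifs were chosen with these sequences in view and searched on both strands. They were CAGCTG and CAGATG, a pair of E-boxes of the kind bound by ATOH1 and related factors, TGANTCA, bound by AP-1, CCGGAA, bound by ETS factors, and TATAAA, the TATA box. MUC2 held CAGCTG 115 bases before the start and CAGATG 99 and 92 bases before it, the first of these on the opposite strand as CATCTG. It also held TGANTCA 151 bases before the start, as TGAATCA, which is not the AP-1 site. In AGR2 a single CAGCTG stood 15 bases before the start, and in MUC13 a single TGANTCA, as TGAGTCA, stood 178 bases before it. None of the 5 motifs matched in FCGBP, SPDEF or ATOH1, and no 2 matches overlapped. Among all 35116 promoters searched over the same length, 14.0% held CAGCTG, 12.2% CAGATG, 6.57% TGANTCA, 14.5% CCGGAA and 10.7% TATAAA. A match describes the letters of a window and is not a binding site.

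AGR2 was the most abundant of the 10 transcripts per length in untreated cells, at 225 ± 57 RPKM (reads per kb of exon in units of RPM; SD, n = 2) in the CCNB1-negative and 176 ± 42 in the CCNB1-positive fraction. MUC13, MUC5AC, TFF1 and SPDEF followed at means of 15.7 to 21.9 RPKM in the 2 untreated fractions. Neighbours in that order overlapped between their libraries. TFF3 stood with them in untreated CCNB1-negative cells at 16.5 RPKM but below them in CCNB1-positive cells at 6.53 RPKM. ATOH1, FCGBP and MUC2 lay at 0.384 to 1.13 RPKM. FCGBP and MUC2 overlapped each other in both untreated fractions. MUC5B was lowest in every group, at 0.0136 to 0.0306 RPKM. Of the gel-forming mucins among the 10, MUC5AC and not MUC2 was the most abundant per length. Its RPKM over that of MUC2 was 32.3 and 37.2 in untreated CCNB1-negative libraries and 30.5 and 41.6 in untreated CCNB1-positive ones. These ratios compare different genes, and how reads mapping to several places were handled is not given.

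**Figure D1:**
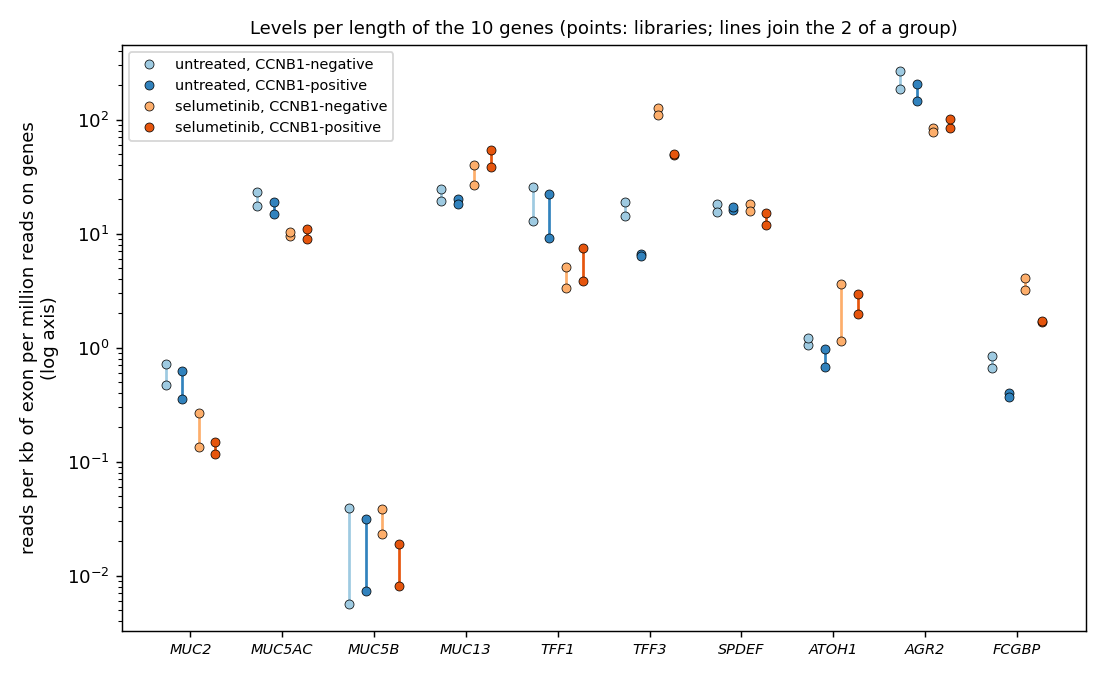
Level per length of the 10 genes in each of the 8 libraries, on a log axis of RPKM (reads per kb of exon in units of RPM); each line joins the 2 libraries of a group. AGR2 stands highest in untreated cells at means of 225 and 176, TFF3 reaches a mean of 117 in treated CCNB1-negative cells, and MUC5B stays lowest.

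Selumetinib changed the order of these levels. In treated CCNB1-negative cells TFF3 was highest at 117 ± 12 RPKM, above AGR2 at 80.6 ± 4.7 RPKM and MUC13 at 33.3 ± 9.7 RPKM, with no overlap between neighbours (SD, n = 2). In treated CCNB1-positive cells AGR2 came first at 92.4 RPKM, and TFF3 at 49.6 RPKM overlapped MUC13 at 46.0 RPKM. SPDEF and then MUC5AC followed in both treated fractions, at 13.5 to 16.9 RPKM and at 9.997 and 10.01 RPKM. TFF1 was next at 4.22 and 5.68 RPKM, and in CCNB1-negative cells it overlapped FCGBP at 3.65 RPKM, which overlapped ATOH1 at 2.36 RPKM.

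With selumetinib some of the 10 genes rose and others fell. TFF3 and FCGBP rose and MUC2, MUC5AC, TFF1 and AGR2 fell in both fractions. MUC13 and ATOH1 rose and SPDEF fell by the test in CCNB1-positive cells, and these 3 did not pass it in CCNB1-negative cells, while MUC5B was not tested. By limma with Benjamini-Hochberg adjustment over the 14219 genes, 6 of 9 were called in CCNB1-negative cells, 2 higher and 4 lower, against 74.1% of all genes tested (38.2% higher and 35.8% lower). In CCNB1-positive cells 9 of 9 were called, 4 higher and 5 lower, against 65.3% of all genes (38.0% higher and 27.3% lower). So large a share of all genes moved that a call by itself sets none of the members apart. Treated and untreated libraries did not overlap for 6 of the 9 in CCNB1-negative cells (2 higher, 4 lower) and for 9 of 9 in CCNB1-positive cells (4 higher, 5 lower), where 86.4% (44.6% higher, 41.9% lower) and 85.8% (48.6% higher, 37.1% lower) of all genes did not overlap. The median log2 change of the 9 was -0.13 and -0.42 in the respective fractions, beside 0.05 and 0.17 over all genes tested. Of a gene that fell in sorted bulk libraries, fewer cells expressing it and less RNA per cell cannot be told apart.

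**Figure D2:**
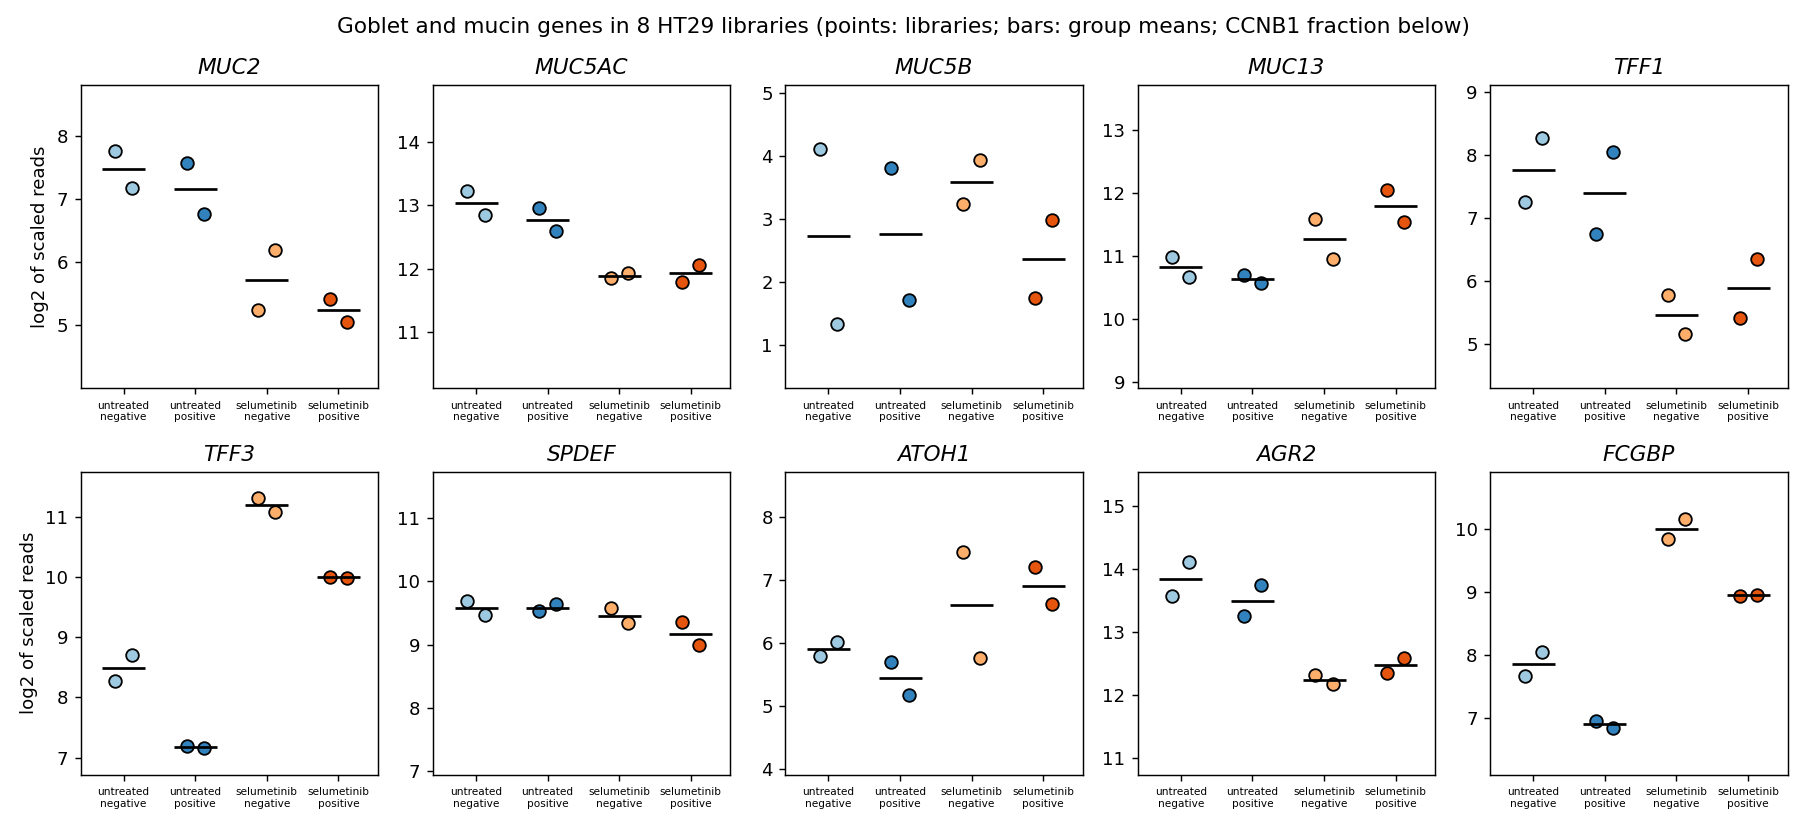
log2 of scaled reads of the 10 genes in the 8 libraries; points are libraries, bars are group means, and each panel has its own axis. TFF3 and FCGBP stand higher and MUC2, MUC5AC, TFF1 and AGR2 lower in all 4 treated libraries than in any untreated library, whereas the MUC5B groups overlap except for the fractions of treated cells.

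**Figure D3:**
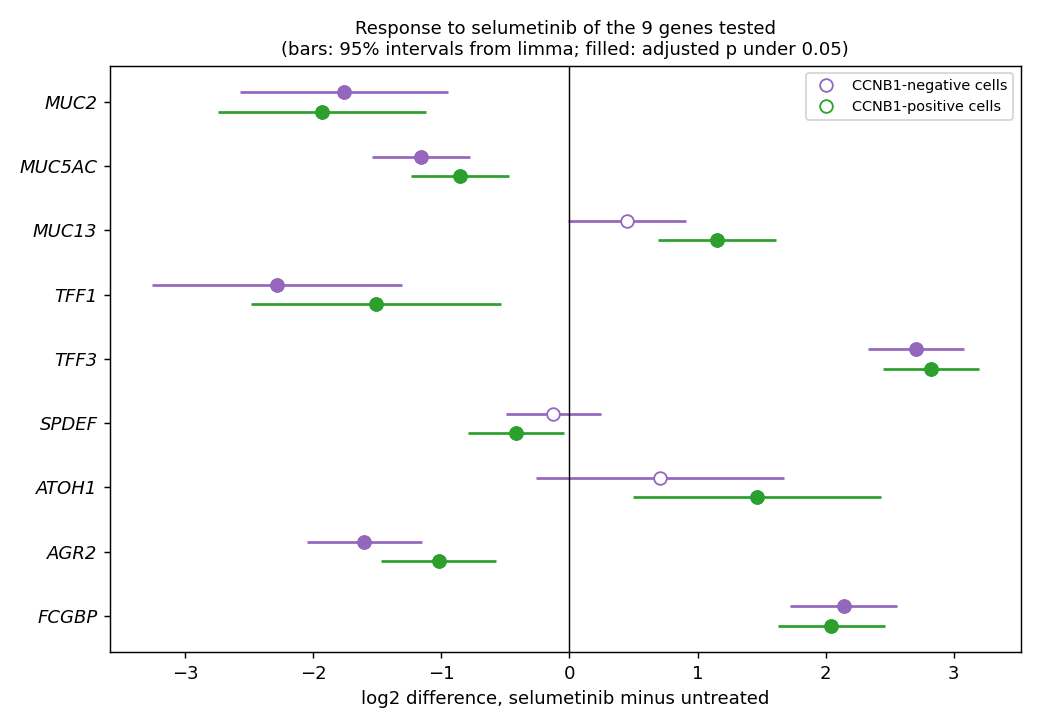
Response to selumetinib of the 9 genes tested as the log2 difference between treated and untreated cells, with 95% intervals from limma; filled points have an adjusted p under 0.05. TFF3 (2.70 and 2.82) and FCGBP (2.14 and 2.04) lie to the right and MUC2, MUC5AC, TFF1 and AGR2 to the left in both fractions.

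MUC2, the mucin that builds the colonic mucus gel, fell. Its log2 values were 7.76 and 7.18 in untreated CCNB1-negative libraries and 5.24 and 6.19 in treated ones. In the CCNB1-positive fraction they were 7.56 and 6.76 without and 5.42 and 5.05 with the drug. Every treated library lay below every untreated one, at 1.49 to 3.39 RPM (21 to 43 reads) against 4.49 to 9.11 RPM (99 to 200 reads). MUC2 fell by 1.76 on the log2 scale in CCNB1-negative cells (SE 0.38, adjusted p = 0.00077) and by 1.93 in CCNB1-positive cells (SE 0.38, adjusted p = 0.00053), or 3.38-fold and 3.81-fold. Over the 17 other settings tried in each fraction the adjusted p ranged up to 0.014 and 0.0068, and no setting turned the direction. The falls were largest with quantile normalization (-2.62 and -2.89).

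MUC5AC, the gel-forming mucin typical of the stomach surface, fell as well, but less. It had log2 values of 13.23 and 12.86 in untreated and 11.85 and 11.93 in treated CCNB1-negative libraries. Values of 12.95 and 12.60 were found in untreated and of 11.79 and 12.06 in treated CCNB1-positive libraries. The 4 treated libraries all lay below the 4 untreated ones. The fall was 2.23-fold in CCNB1-negative cells (log2 difference -1.16, SE 0.18, adjusted p = 4.6e-05) and 1.81-fold in CCNB1-positive cells (-0.85, SE 0.18, adjusted p = 0.00087).

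MUC5B, the gel-forming mucin of airways and salivary glands, was barely detected. Untreated libraries held 16 and 2 reads in the CCNB1-negative and 14 and 3 in the CCNB1-positive fraction. Treated libraries held 6 and 9 reads in the CCNB1-negative and 3 and 5 in the CCNB1-positive fraction. The replicates of an untreated group lay farther apart than any pair of group means. MUC5B was not tested under the filter, no fold is given at this depth, and without the filter its adjusted p was 0.50 for the CCNB1-negative and 0.76 for the CCNB1-positive fraction. A response of this gene was not detectable.

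MUC13, a membrane-bound mucin of the intestinal epithelium, rose in CCNB1-positive cells, where MUC2 and MUC5AC fell. Its log2 values in CCNB1-positive cells were 10.71 and 10.58 untreated and 12.05 and 11.53 treated, which did not overlap. In CCNB1-negative cells they were 10.99 and 10.67 untreated and 11.59 and 10.96 treated, which overlapped. The rise of 2.22-fold in CCNB1-positive cells passed the test (log2 difference 1.15, SE 0.21, adjusted p = 0.00037). In CCNB1-negative cells the difference of 0.45 (95% interval -0.01 to 0.91) did not (adjusted p = 0.073). Over the other settings this difference ran from 0.08, with TMM scaling, to 0.76. That second result depended on the settings: MUC13 was called in 6 of 18 others, among them with quantile normalization (0.65, adjusted p = 0.020), with limma-voom on the recovered reads (0.59, adjusted p = 0.019), with only these groups in the model (adjusted p = 0.039), without untreated CCNB1-negative replicate 1 (0.61, adjusted p = 0.044) and without treated CCNB1-negative replicate 2 (0.76, adjusted p = 0.0088).

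The balance between MUC13 and MUC5AC moved as well. The ratio of their RPKM values lay between 1.05 and 1.23 in the 4 untreated libraries. It was 4.18 and 2.55 in treated CCNB1-negative libraries and 5.98 and 3.46 in treated CCNB1-positive libraries, so that treated and untreated libraries did not overlap. Of the summed RPKM of the 4 mucins, MUC13 made up 50.4% to 54.5% without and 71.3% to 85.5% with the drug. The share of MUC2 was 1.07% to 1.57% and 0.238% to 0.720%.

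The trefoil factors, small secreted peptides that travel with mucus and help to repair its epithelium, went opposite ways. TFF3, the intestinal one, had log2 values of 8.28 and 8.70 in untreated and 11.32 and 11.08 in treated CCNB1-negative libraries. In CCNB1-positive libraries it stood at 7.20 and 7.15 without and 10.002 and 9.99 with the drug. No treated library came near an untreated one. TFF3 rose 6.52-fold in CCNB1-negative cells (log2 difference 2.70, SE 0.18, adjusted p = 1.8e-08) and 7.06-fold in CCNB1-positive cells (2.82, SE 0.18, adjusted p = 7.8e-08).

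TFF1, the gastric trefoil factor, which lies near TFF3 on chromosome 21, fell. Untreated log2 values were 7.25 and 8.26 in the CCNB1-negative and 6.74 and 8.05 in the CCNB1-positive fraction. Treated values were 5.78 and 5.15, and 5.42 and 6.36. Groups did not overlap within a fraction, but the untreated replicates lay more than 1 log2 unit apart. TFF1 fell 4.87-fold in CCNB1-negative cells (log2 difference -2.28, SE 0.45, adjusted p = 0.00042) and 2.85-fold in CCNB1-positive cells (-1.51, SE 0.45, adjusted p = 0.0099). The call in CCNB1-positive cells was lost without untreated CCNB1-positive replicate 2 (-0.85, adjusted p = 0.14) and without treated CCNB1-positive replicate 1 (-1.04, adjusted p = 0.10), and without untreated CCNB1-positive replicate 1 the difference was -2.16. Quantile normalization gave -3.16 and -2.33 in the respective fractions. The TFF3 to TFF1 ratio of RPKM values was 0.287 to 1.09 in untreated libraries and 6.64 to 32.4 in treated ones.

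Of the transcription factors, ATOH1, which commits cells to the secretory lineage, was scarce at 32 to 130 reads per library. In CCNB1-positive cells its log2 values were 5.70 and 5.18 untreated and 7.19 and 6.61 treated, with no overlap. In CCNB1-negative cells they were 5.79 and 6.01 untreated and 7.44 and 5.76 treated, so that 1 treated library lay above and the other below both untreated ones. ATOH1 rose 2.76-fold in CCNB1-positive cells (log2 difference 1.46, SE 0.45, adjusted p = 0.011). The difference of 0.71 in CCNB1-negative cells did not pass (95% interval -0.26 to 1.67, adjusted p = 0.17).

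Single libraries and the scaling decided these ATOH1 values. Without treated CCNB1-negative replicate 2 the ATOH1 difference in that fraction was 1.55 (adjusted p = 0.0040), without replicate 1 it was -0.14, and with quantile normalization -0.22. The call in CCNB1-positive cells was lost without untreated replicate 2 (1.20, adjusted p = 0.063), without treated replicate 1 (1.17, adjusted p = 0.089) and with quantile normalization (0.36, adjusted p = 0.55).

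SPDEF, the ETS factor that matures goblet cells, moved least. Untreated log2 values were 9.69 and 9.47 in CCNB1-negative and 9.53 and 9.64 in CCNB1-positive cells. Treated values were 9.58 and 9.34, and 9.35 and 8.99. Treated and untreated CCNB1-negative libraries overlapped, and CCNB1-positive ones did not. SPDEF fell 1.33-fold in CCNB1-positive cells (log2 difference -0.42, SE 0.17, adjusted p = 0.049), and in CCNB1-negative cells the difference was -0.13 (95% interval -0.50 to 0.25, adjusted p = 0.52). Without the filter the call in CCNB1-positive cells was lost (adjusted p = 0.071), as it was with limma-voom (-0.30, adjusted p = 0.13), without untreated CCNB1-positive replicate 1 (-0.47, adjusted p = 0.085) or 2 (-0.36, adjusted p = 0.20), without treated CCNB1-positive replicate 2 (-0.23, adjusted p = 0.36), and without either untreated CCNB1-negative library (both adjusted p = 0.054). Under TMM scaling SPDEF was lower in CCNB1-negative cells too (-0.49, adjusted p = 0.022).

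AGR2, the ER disulfide isomerase that goblet cells need to make MUC2, fell. Its log2 values were 13.57 and 14.11 in untreated and 12.31 and 12.17 in treated CCNB1-negative libraries. They were 13.24 and 13.75 in untreated and 12.35 and 12.59 in treated CCNB1-positive libraries. All 4 treated libraries lay below all 4 untreated ones. The fall was 3.03-fold in CCNB1-negative cells (log2 difference -1.60, SE 0.21, adjusted p = 9.9e-06) and 2.03-fold in CCNB1-positive cells (-1.02, SE 0.21, adjusted p = 0.00075).

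FCGBP, a large secreted protein that is part of the mucus, rose. Untreated log2 values were 7.66 and 8.05 in CCNB1-negative and 6.95 and 6.85 in CCNB1-positive libraries. Treated values were 9.83 and 10.16, and 8.93 and 8.95. Treated and untreated libraries stood well apart in each fraction. FCGBP rose 4.41-fold (log2 difference 2.14, SE 0.19, adjusted p = 3.4e-07) in CCNB1-negative and 4.12-fold (2.04, SE 0.19, adjusted p = 1.6e-06) in CCNB1-positive cells. MUC2, MUC5AC, TFF3, AGR2 and FCGBP kept their direction and their call in both fractions in every setting tried.

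The comparison of CCNB1-positive with CCNB1-negative cells asked whether cells in G2 differed in these genes. TFF3 and FCGBP, called higher with the drug in both fractions, were lower in CCNB1-positive cells with and without it. MUC13 and ATOH1, called higher with the drug in CCNB1-positive cells only, were not called between fractions in this fit. Their differences were -0.19 and -0.46 in untreated and 0.51 and 0.30 in treated cells. TFF3 was 2.49-fold lower in untreated cells (log2 difference -1.32, SE 0.18, adjusted p = 0.00047) and 2.30-fold lower in treated cells (-1.20, SE 0.18, adjusted p = 0.00030). FCGBP was 1.94-fold lower in untreated (-0.95, SE 0.19, adjusted p = 0.014) and 2.07-fold lower in treated cells (-1.05, SE 0.19, adjusted p = 0.0020). The libraries of these fractions did not overlap for either gene.

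These were 2 of 9 genes called in each treatment, both lower in CCNB1-positive cells, against 2.87% of all genes tested in untreated cells (1.36% higher, 1.51% lower) and 21.6% in treated cells (13.8% higher, 7.87% lower). Fractions did not overlap for 3 of the 9 in untreated cells, all lower (the third being ATOH1), and for 3 in treated cells, 1 of them higher (AGR2), beside 44.3% (16.3% higher, 28.0% lower) and 63.9% (33.0% higher, 31.0% lower) of all genes. The FCGBP call in untreated cells was lost with quantile normalization (-0.66, adjusted p = 0.18), with only these groups in the model (adjusted p = 0.074), and without replicate 2 of the CCNB1-negative (-0.76, adjusted p = 0.17) or CCNB1-positive libraries (-0.90, adjusted p = 0.099).

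**Figure D4:**
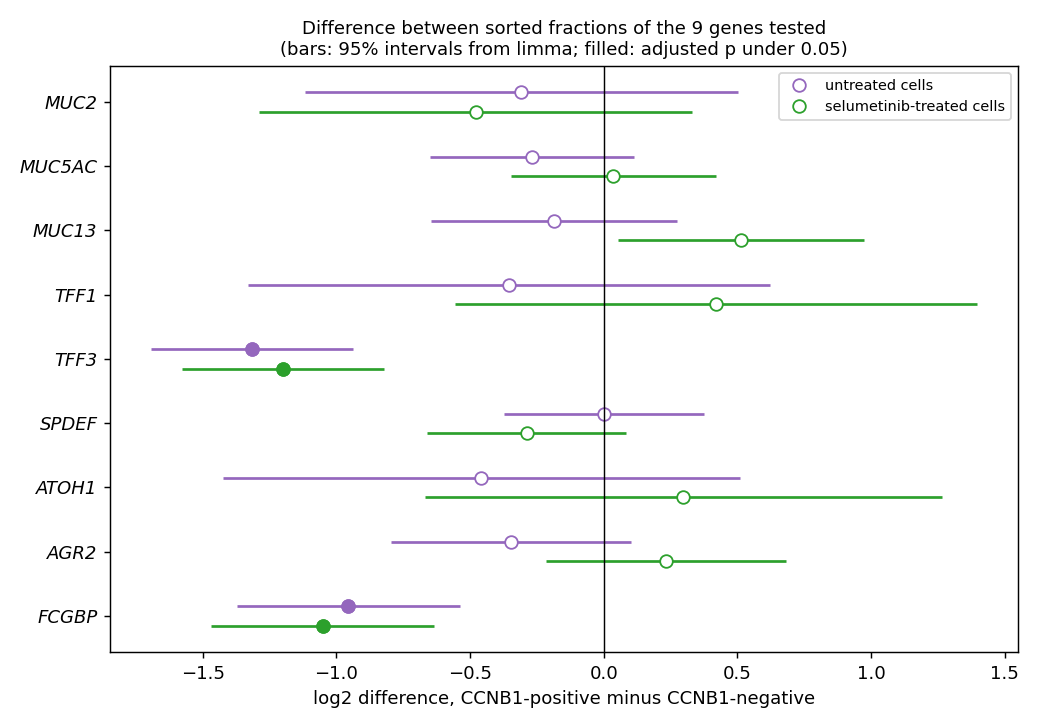
Difference between sorted fractions of the 9 genes tested, as the log2 difference CCNB1-positive minus CCNB1-negative with 95% intervals from limma; filled points have an adjusted p under 0.05. TFF3 (-1.32 and -1.20) and FCGBP (-0.95 and -1.05) are the filled points, and the intervals of 6 of the other 7 genes cross 0 in both treatments.

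The other 7 genes did not pass between fractions in the fit of all 8 libraries without a replicate block. MUC2 differed by -0.31 in untreated (95% interval -1.12 to 0.50) and by -0.48 in treated cells (-1.29 to 0.33). For MUC5AC the differences were -0.27 (-0.65 to 0.11) and 0.04 (-0.35 to 0.42). SPDEF gave 0.0015 (-0.37 to 0.37) and -0.29 (-0.66 to 0.08). These intervals leave room for differences that the 2 libraries per group could not show. MUC13 came closest to a call, in treated cells (0.51, interval 0.05 to 0.97, adjusted p = 0.10). It was called there in 3 of 19 other settings, among them with a replicate block (adjusted p = 0.024). Without treated CCNB1-negative replicate 1 the difference was 0.83. TFF1, ATOH1 and AGR2 lay at -0.46 to -0.35 in untreated and at 0.23 to 0.42 in treated cells. None had an adjusted p under 0.43 in the fit without a block. A replicate block within treatment called AGR2 in untreated cells (adjusted p = 0.041), where 13.5% of all genes were called. In treated cells it called MUC13 (adjusted p = 0.00030) and SPDEF (adjusted p = 0.049), where 46.9% of all genes were called.

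Whether the response itself differed between fractions was tested by the interaction, the response of CCNB1-positive minus that of CCNB1-negative cells. By limma 0 of 9 genes were called, against 5.33% of all genes tested (4.99% higher, 0.345% lower), and limma-voom on the recovered reads called 0 as well. With a replicate block within treatment limma called MUC13 (adjusted p = 0.0010) and AGR2 (0.58, adjusted p = 0.0096), where 27.1% of all genes were called. Without adjustment 1 gene passed 0.05 in limma, MUC13 (0.70, SE 0.30), with an adjusted p of 0.21. Without treated CCNB1-negative replicate 1 the MUC13 interaction was 1.02 (adjusted p = 0.040). The interaction was 0.12 for TFF3 (95% interval -0.42 to 0.65) and -0.10 for FCGBP (-0.69 to 0.49). For AGR2 the interval was -0.05 to 1.21 and for MUC2 -1.32 to 0.97.

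Among other mucins, rises were led by the membrane mucins MUC1 and MUC20. Of 18 further mucin and mucin-like genes 7 passed the filter, of which 3 rose and 1 fell in CCNB1-negative cells and 4 rose in CCNB1-positive cells (median log2 change 0.46 and 1.24), beside 38.2% higher and 35.8% lower, then 38.0% and 27.3%, of all genes tested. TMM scaling gave 2 higher and 3 lower, then 4 higher and 1 lower, and quantile normalization 2 and 2, then 2 and 1. MUC1 rose from log2 values of 2.65 to 3.17 in the untreated libraries to 6.21 to 7.22 in the treated ones (log2 difference 3.97, adjusted p = 3.6e-06, and 3.595, adjusted p = 1.8e-05). The untreated MUC1 values stand for fewer than 10 scaled reads a library, so its size is uncertain: a pseudocount of 1 RPM gave 2.16 and 1.96, and quantile normalization 2.98 and 2.32. MUC20 rose by 2.51 (adjusted p = 3.8e-07) and 2.82 (adjusted p = 5.2e-07), but it has near-identical pseudogene copies and reads may be split among them. CD164, a sialomucin, fell by 0.72 (adjusted p = 0.0051) in CCNB1-negative cells, a call lost with quantile normalization (-0.42, adjusted p = 0.088) and without treated CCNB1-negative replicate 2 (-0.45, adjusted p = 0.074), and its difference in CCNB1-positive cells was -0.14 (adjusted p = 0.57).

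Further goblet cell genes moved both ways. Of 27 listed 18 were tested, of which 9 rose and 4 fell in CCNB1-negative and 8 rose and 3 fell in CCNB1-positive cells (median 0.59 and 0.53), beside 38.2% and 38.0% of all genes higher and 35.8% and 27.3% lower. TMM scaling gave 8 higher and 6 lower, then 8 higher and 4 lower. FER1L6, a ferlin gene, went from log2 values of 2.94 to 4.42 in untreated to 8.05 to 10.16 in treated libraries (log2 difference 5.62, adjusted p = 4.2e-08, and 4.58, adjusted p = 8.6e-07). The second value was 5.23 without untreated CCNB1-positive replicate 1 and 3.93 without replicate 2, and a pseudocount of 1 RPM gave 4.43 and 3.09 for FER1L6. HEPACAM2, an adhesion protein gene marking secretory cells, rose by 4.94 (adjusted p = 1.8e-08) and 5.49 (adjusted p = 5.3e-08), or 4.21 and 3.546 with a pseudocount of 1 RPM. Like TFF3, HEPACAM2 was lower in CCNB1-positive than in CCNB1-negative cells, at -2.15 in untreated (adjusted p = 0.0012) and -1.61 in treated cells (adjusted p = 0.0033). Its untreated CCNB1-positive log2 values of 3.17 and 2.72 stand for few reads, so the size of the first is uncertain. Of the 18 genes 0 were higher and 3 lower in untreated CCNB1-positive cells, beside 1.36% and 1.51% of all genes. In treated cells 0 were higher and 5 lower, beside 13.8% and 7.87%. REG4, a secreted lectin, fell by 2.15 (adjusted p = 4.2e-07) and 1.78 (adjusted p = 5.8e-06), and S100P, a calcium-binding protein, by 1.08 (adjusted p = 2.4e-05) and 0.70 (adjusted p = 0.0013). The S100P call in CCNB1-positive cells was lost with quantile normalization (-0.34, adjusted p = 0.056).

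**Figure D5:**
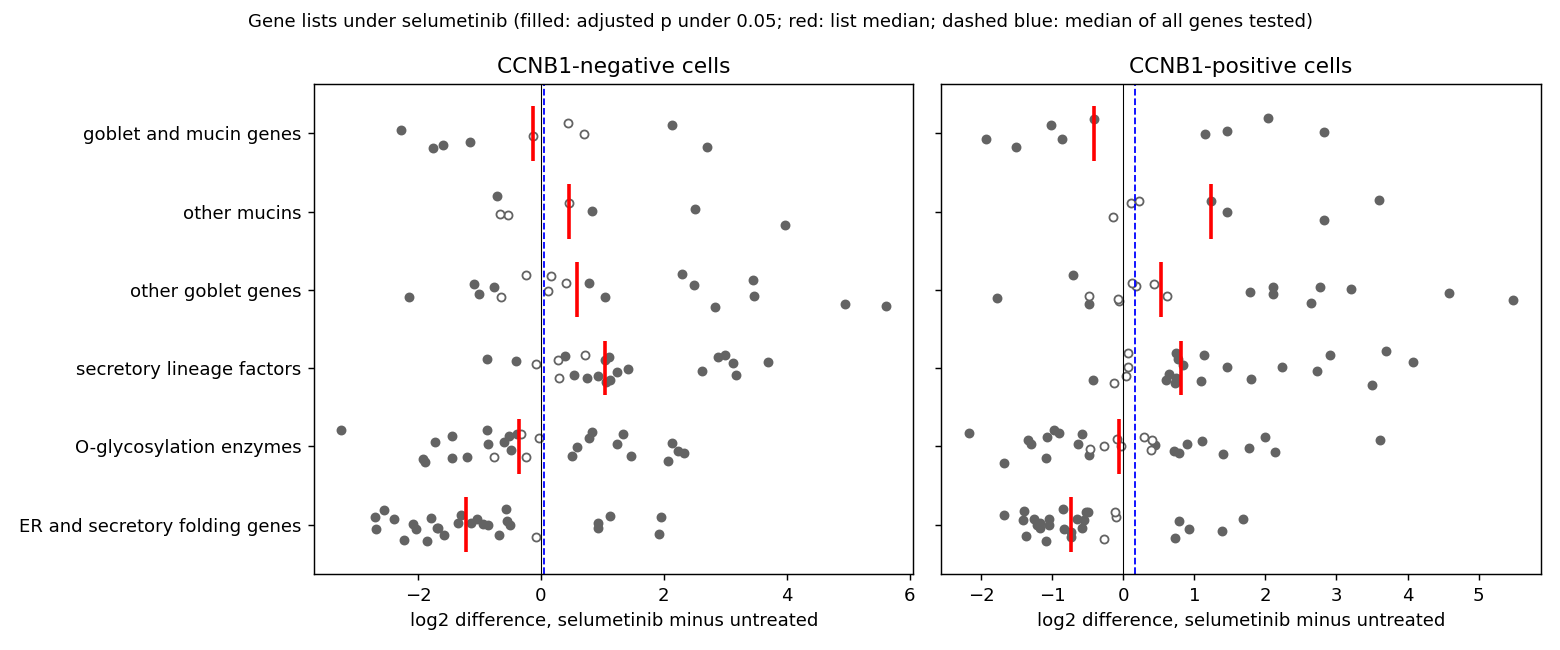
log2 difference between selumetinib-treated and untreated cells for every tested gene of 6 lists, by fraction; filled points have an adjusted p under 0.05, red bars are list medians and the dashed line is the median of all genes tested (0.05 and 0.17). Secretory lineage factors have medians of 1.05 and 0.81, and ER and secretory folding genes of -1.23 and -0.73.

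Transcription factors and Notch genes of the secretory lineage made up the next list. Of 24 listed 22 were tested, of which 16 rose and 2 fell in CCNB1-negative and 17 rose and 1 fell in CCNB1-positive cells (median 1.05 and 0.81), beside 38.2% and 38.0% of all genes higher and 35.8% and 27.3% lower. TMM scaling gave 12 higher and 2 lower, then 11 higher and 2 lower. DLL1, a Notch ligand displayed by secretory cells, had log2 values of 3.83 to 5.65 in untreated and 7.89 to 8.96 in treated libraries (3.70, adjusted p = 1.3e-07, and 4.08, adjusted p = 2.6e-07), with 3.04 and 2.82 under a pseudocount of 1 RPM and 2.98 in CCNB1-positive cells under quantile normalization. CBFA2T2, a transcriptional corepressor, rose by 3.18 (adjusted p = 2.3e-08) and 2.23 (adjusted p = 1.5e-06). SOX9, a factor of crypt base cells, fell by 0.88 (adjusted p = 0.00038) and 0.42 (adjusted p = 0.043), the second call being lost with limma-voom (-0.32, adjusted p = 0.11), with quantile normalization (-0.34, adjusted p = 0.10), without the filter (adjusted p = 0.077), and without untreated CCNB1-positive replicate 1 (-0.34, adjusted p = 0.21) or 2 (-0.51, adjusted p = 0.066) or treated CCNB1-positive replicate 2 (-0.26, adjusted p = 0.31). ID1, an inhibitor of helix-loop-helix factors, fell by 0.41 in CCNB1-negative cells (adjusted p = 0.047), a call lost in 11 of 18 other settings, such as without untreated (-0.30, adjusted p = 0.23) replicate 1 or treated (-0.16, adjusted p = 0.41) replicate 2 of that fraction, and differed by 0.07 in CCNB1-positive cells (adjusted p = 0.73).

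The enzymes that build O-linked sugars on mucins moved both ways. Of 37 listed 28 were tested, of which 11 rose and 13 fell in CCNB1-negative and 10 rose and 11 fell in CCNB1-positive cells (median -0.36 and -0.05), beside 38.2% and 38.0% of all genes higher and 35.8% and 27.3% lower, and TMM scaling gave 8 higher and 16 lower, then 6 higher and 14 lower. GCNT3, which makes branched mucin-type core structures, fell by 3.25 (adjusted p = 1.5e-09) and 2.17 (adjusted p = 1.6e-07), from 12.92 to 13.12 in untreated libraries to 9.74 to 10.96 in treated ones. FUT4, a fucosyltransferase, fell by 1.91 (adjusted p = 8.2e-07) and 0.90 (adjusted p = 0.00096). CHST5, an intestinal sulfotransferase, rose by 2.32 (adjusted p = 0.0016) and 3.62 (adjusted p = 6.9e-05), the first call being lost with quantile normalization (1.23, adjusted p = 0.082). The second rests on untreated CCNB1-positive libraries at log2 values of 1.58 and 3.30, a few reads each: it was 2.76 without replicate 1 of that group and 4.48 without replicate 2, and 2.27 with quantile normalization. A pseudocount of 1 RPM gave 1.38 and 1.59 for CHST5. ST6GAL1 rose by 2.22 (adjusted p = 2.0e-07) and 2.14 (adjusted p = 9.5e-07), and it acts mainly on N-linked sugars.

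Like AGR2, most genes for folding and export of secreted proteins fell. All 28 listed were tested, of which 5 rose and 22 fell in CCNB1-negative and 5 rose and 20 fell in CCNB1-positive cells (median -1.23 and -0.73), beside 38.2% and 38.0% of all genes higher and 35.8% and 27.3% lower. HSPA5, the main ER chaperone, fell by 2.70 (adjusted p = 7.0e-09) and 1.67 (adjusted p = 1.3e-06), from log2 values of 13.22 to 13.50 in untreated libraries to 10.59 to 11.69 in treated ones. SDF2L1, an ER chaperone component, fell by 2.68 (adjusted p = 1.4e-08) and 1.36 (adjusted p = 1.3e-05). ERN1 and ERN2, the sensors of unfolded protein in the ER, of which ERN2 is typical of mucous cells, rose. Their log2 differences were 1.95 (adjusted p = 4.9e-07) and 1.40 (adjusted p = 2.2e-05) for ERN1, and 1.93 (adjusted p = 1.6e-06) and 1.68 (adjusted p = 1.2e-05) for ERN2. In treated cells 12 of the 28 genes were higher and 3 lower in CCNB1-positive than in CCNB1-negative cells, beside 13.8% and 7.87% of all genes tested.

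The 5 genes whose pattern came closest to that of MUC2 over the 8 libraries, by the root mean square difference of log2 values after centring each gene, were SNHG4 and WDR4 (both 0.36), ENG (0.38), ADORA2B (0.39) and CHCHD10 (0.41). Since they were chosen by likeness to MUC2, which fell, their own fall under selumetinib follows from the choice. Their log2 differences were -1.96 to -1.40 in CCNB1-negative and -2.05 to -1.24 in CCNB1-positive cells. Of the other goblet and mucin genes MUC5AC (0.55) stood at rank 181 and AGR2 (0.65) at rank 1039 among the tested genes, and TFF3 was the farthest (2.39).

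Summed levels of markers of other intestinal cell types moved with the treatment too, but a sum follows its most abundant genes. Of 9 enteroendocrine markers 2 were tested, and their summed level over the list was 1.95 to 4.05 RPM in untreated and 11.6 to 19.7 RPM in treated libraries. One of the tested pair, NEUROG3, is also among the secretory lineage factors. For tuft cells 4 of 6 markers were tested, at a summed 1.498 to 3.32 RPM and 16.7 to 35.7 RPM. For absorptive enterocytes 3 of 11 were tested, at 18.9 to 24.3 RPM and 36.2 to 38.5 RPM, and for stem cells 4 of 6, at 71.2 to 101.8 RPM and 171 to 262 RPM. Paneth cell markers, 3 of 7 tested, summed to 985 to 1199 RPM and 377 to 801 RPM, and the Paneth defensin DEFA5 was at 0 in all 8 libraries. Fibroblast markers (1 of 6 tested) summed to 1.32 to 1.59 RPM and 2.36 to 8.26 RPM, and leukocyte markers (1 of 5 tested) to 7.53 to 9.75 RPM and 5.91 to 12.5 RPM. In CCNB1-negative and then CCNB1-positive cells, 2 and 2 enteroendocrine, 4 and 3 tuft and 2 and 2 enterocyte markers were called higher with the drug. So were 2 and 3 stem, 0 and 1 Paneth and 1 and 1 fibroblast markers. Called lower were 1 and 1 enterocyte, 1 and 1 stem and 2 and 1 Paneth markers, and no enteroendocrine, tuft, fibroblast or leukocyte marker. Of the 9 markers of colorectal epithelium 3 and 3 were called higher and 3 and 1 lower. Their summed level was 10768 to 11914 RPM in untreated and 5954 to 10148 RPM in treated libraries. Over all genes tested 38.2% and 38.0% were higher and 35.8% and 27.3% lower. The part of these other cell types in the changes of the goblet and mucin genes was not tested.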

How the data were processed

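HT29 cells, untreated or in 1 μM selumetinib for 24 h and sorted on CCNB1, gave 8 mRNA-seq libraries in 4 groups of 2. Per the labels and methods, the authors used Trim Galore 0.5.0 for trimming, HISAT2 2.1.0 for alignment against GRCh38 and SeqMonk 1.47.0 for quantification. The deposited values are log2 read numbers scaled up to the deepest library, and genes without a read stand at 0.9 reads before scaling. How reads mapping to several places and strand were handled is not given in the sources used here. All value columns were used.

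Undoing the scaling returned whole reads for 100% of detected genes in every library, within 0.01 read or, at high counts, the rounding of the file. They set the depth, 12696860 to 23916160 reads on genes, and cover counting error only. Replicates differed by more than counting noise in each group (chi-square per gene 17.3 to 33.5). RPM and RPKM were computed from these reads, with exon lengths of GENCODE release 44, in which 99.3% of the identifiers were found.

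Genes averaging 1 RPM or more were fitted with limma 3.58.1 (mean-variance trend, 1 coefficient per group, all 8 libraries) in R 4.3.3, with Benjamini-Hochberg adjusted p under 0.05 as a call. The design had left the test open to the unit found, and its part for log2 values was used. Fold changes are on the scale of the deposited values. On simulated reads of 14840 genes, 77% of 2-fold and 98% of 4-fold changes in CCNB1-negative cells were recovered, and 12 of 187 calls were false. Only 200 genes were changed in that simulation, and all genes had the same fixed dispersion between independent replicates. In the real libraries 74.1% of the genes tested were called in CCNB1-negative cells, so these rates need not hold for them. The 10 genes, the related lists, the marker lists and the tests were chosen with earlier results of these data known. Each related list contributed its 2 top rising and 2 top falling genes called in CCNB1-negative cells, as well as the 5 genes most like MUC2, CCNB1, DUSP6 and, for single sentences, NEUROG3, DEFA5, EPCAM and KRT20. Python 3.11.15 with pandas 2.3.3, numpy 2.4.6, scipy 1.17.1 and matplotlib 3.10.9 did the rest. Alternatives were quantile and TMM scaling, no filter or one of 10 RPM, pseudocounts of 1 and 0.1 RPM, an adjusted p under 0.01, limma-voom, a replicate block, only the groups compared, and leaving out each library.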

Additional observations from a re-analysis of the deposited data

Results flagged for a closer look

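By the interaction in limma, CCNB1-positive and CCNB1-negative cells responded unequally for 5 genes named in the report. The interaction is the response in CCNB1-positive minus that in CCNB1-negative cells, adjusted over all genes tested. The share called over all genes tested was 5.33% (4.99% higher, 0.345% lower). None of the 5 is a goblet or mucin gene of the 10. For the O-glycosylation enzymes GCNT3 and FUT4 the interaction was 1.08 (adjusted p = 0.0065) and 1.01 (adjusted p = 0.046), since both fell less in CCNB1-positive cells. For the ER chaperone genes HSPA5 and SDF2L1 it was 1.02 (adjusted p = 0.012) and 1.32 (adjusted p = 0.0036), in the same direction. GCNT3, FUT4, HSPA5 and SDF2L1 were named for the largest falls of their lists in CCNB1-negative cells. That response is subtracted in the interaction, so the choice of these genes favours a positive value. CCNB1, the gene of the protein used for sorting, had an interaction of 2.99 (adjusted p = 1.8e-05), with mean log2 values of 7.57 and 12.65 in the treated fractions. These interactions are the same under the titles of the samples. With 2 libraries in each group, no library could be tested as an outlier.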

How the results depend on the processing

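The number of members called stayed within 1.5 times of that reported under most settings. In untreated cells 1 member in place of 2 differed between fractions with quantile normalization, with an adjusted p under 0.01 and with only the groups compared. No label says whether the 2 replicate numbers mark a shared culture, so what libraries of 1 number share is not known from the labels. Their deviations from the group means correlated within a treatment (0.35 between the untreated and 0.43 between the treated fractions) and not across treatments (-0.09 to 0.08). The replicate block changed the counts of members called to 7, 9, 2, 3 and 0 for the responses of CCNB1-negative and CCNB1-positive cells, the untreated and treated fractions and the interaction, adding MUC13 in the first (adjusted p = 0.014) and the fourth (adjusted p = 0.024). With a replicate block within treatment 3 members were called between untreated fractions, AGR2 (adjusted p = 0.041) being added, 4 between treated fractions, MUC13 (adjusted p = 0.00030) and SPDEF (adjusted p = 0.049) being added, and 2 in the interaction (MUC13 and AGR2), while 13.5%, 46.9% and 27.1% of all genes were called in these comparisons. With a filter of 10 RPM fewer genes of a list are tested, and 2 and 1 other mucins and 7 and 6 other goblet genes were called in CCNB1-negative and CCNB1-positive cells. Leaving out 1 library at a time gave 6 to 8, 6 to 9, 1 to 2, 2 to 3 and 0 to 1 members for the 5 comparisons in the order above. For the lists it gave 3 to 5 and 3 to 4 other mucins, 12 to 14 and 10 to 13 other goblet genes, 16 to 18 in both fractions for lineage factors, 22 to 24 and 17 to 23 O-glycosylation enzymes, and 26 to 27 and 22 to 25 ER genes.

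Small differences turned sign. With quantile normalization this held for MUC5AC between treated fractions (-0.0099), the TFF3 interaction (-0.35), the ATOH1 response in CCNB1-negative cells (-0.22) and the CD164 response in CCNB1-positive cells (0.20). With limma-voom it held for MUC5AC between treated fractions (-0.0028), the SPDEF response in CCNB1-negative cells (0.014) and SPDEF between untreated fractions (-0.0064), and with TMM for the ID1 response in CCNB1-positive cells (-0.29). None of these was called in the reported fit, and the causes were not tested. Leaving out 1 library gave -0.71 to 0.093 for MUC2 between untreated fractions and -0.65 to 0.31 for its interaction, -0.10 to 0.17 for MUC5AC between treated fractions, -1.01 to 0.30 and -0.048 to 0.89 for TFF1 between untreated and treated fractions, -0.10 to 0.33 for the TFF3 interaction, -0.11 to 0.11 for SPDEF between untreated fractions, -0.14 to 1.55 for the ATOH1 response in CCNB1-negative cells, -0.54 to 1.14 for ATOH1 between treated fractions and -0.085 to 1.60 for its interaction, -0.29 to 0.10 for the FCGBP interaction, -0.38 to 0.11 for CD164 and -0.037 to 0.18 for ID1 in CCNB1-positive cells.

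The scaling set the centre of the responses: the median of all genes tested shifted from the reported one by -0.37 and -0.36 with TMM, -0.13 and -0.24 with quantile normalization, and 0.14 and 0.11 with limma-voom, in CCNB1-negative and CCNB1-positive cells. A quasi-likelihood test on the recovered reads had been planned and was not run. At 2 to 16 reads MUC5B was too shallow to compare, and 2 libraries a group limit every interval.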
